A study of Mus musculus with 12 samples.

Results

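The genes described here encode the proteins of the cytosolic ribosome, in mouse pancreatic islets before and after transplantation under the skin. They were chosen by symbol: the large subunit genes (Rpl), the small subunit genes (Rps, with Rpsa) and the stalk genes (Rplp0, Rplp1 and Rplp2), leaving out symbols that mark pseudogenes. That gave 83 members among the 23234 symbols of the table, 48 of the large subunit, 32 of the small subunit and 3 of the stalk. Of the 83 members, 79 passed the filter for testing, a level of 1 FPKM or more in 4 or more libraries. The other 4 were Rpl3l, Rpl10l, Rpl26 and Rpl39l.

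Bulk RNA was sequenced from 3 groups of C57BL/6 islets with 4 libraries each: transplanted islets at day 60, transplanted islets at day 120, and freshly isolated islets that had not been transplanted. The grafts lay in the inguinal subcutaneous white fat, and the labels name no genotype, treatment, sex or age for any group. They number the libraries within each group without saying that these came from separate animals or islet preparations, so p-values speak of the scatter among the libraries alone, some of which may be technical. The values are FPKM, fragments per kilobase of transcript scaled to the mapped fragments of the library, so levels can be compared between genes per length, but counts and depth are unknown.

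Ribosomes hold most of these proteins in equal numbers, and cells usually make their messenger RNAs in step with each other. Ribosomal protein messages are among the most abundant in growing and secretory cells, and many of them begin with a run of pyrimidines at the transcription start, the terminal oligopyrimidine or TOP tract, through which mTOR signalling controls their translation. In islets, where beta cells translate large amounts of insulin, ribosome supply is part of the secretory machinery.

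Start sites were looked up because the TOP tract is the sequence feature that these genes are known to share. RefSeq entries on build GRCm38.p6, which is not the mm9 build of the expression table, were found for 63 of the 83 members. A run of at least 6 pyrimidines (C or T) that touched the 5 bases before or after an annotated start, on the transcribed strand only, was present in 32 of the 63 members, or 50.8%. It was present in 23.0% of the 27025 genes of that table. A C at the start followed by 4 pyrimidines was found in 13 members, or 20.6%, against 3.0% of all genes. Windows of 30 bases, from 10 before the start, are given 5′ to 3′ for 5 members with the tract, in capitals, chosen because their levels are described below or because they hold long runs.
Rpl35, chr2:39005112-39005141, minus strand: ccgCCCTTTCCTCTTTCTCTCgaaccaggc
Rpl14, chr9:120571507-120571536, plus strand: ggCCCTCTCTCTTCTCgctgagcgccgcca
Rps6, chr4:86857348-86857377, minus strand: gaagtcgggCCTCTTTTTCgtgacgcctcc
Rps27, chr3:90213629-90213658, minus strand: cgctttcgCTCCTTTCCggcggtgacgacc
Rpl22l1, chr3:28805498-28805527, plus strand: gcgcaagcccgTTCTCTTCCCacggctgca

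The tract was not found at the annotated start of 3 members that are among the largest risers below, which are shown for comparison and have no capitals. Annotated starts can lie some bases from the starts used in islets, so a missing call says only that no such run touched the 5 bases on either side of these annotated starts. The Rps12 window does hold a run of pyrimidines, but it begins further into the transcript. Rpl22 has another annotated start, also with no tract.
Rpl36a, chrX:134585644-134585673, plus strand: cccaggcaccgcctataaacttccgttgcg
Rps12, chr10:23787190-23787219, minus strand: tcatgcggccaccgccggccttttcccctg
Rpl22, chr4:152324426-152324455, plus strand: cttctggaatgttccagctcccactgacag

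In isolated islets the members were abundant and steady. Over the 79 tested members the median level was 333 FPKM, and the coefficient of variation over the 4 isolated islet libraries had a median of 12.3% and was under 20% in 75 members. The highest were Rpl41 at 1340 ± 228 FPKM (SD, n = 4), which encodes the smallest ribosomal protein, Rpl38 at 1061 ± 166 FPKM and the stalk gene Rplp1 at 926 ± 158 FPKM. The ranges of these neighbours overlapped, but their order was the same within each of the 4 isolated islet libraries. The lowest tested members, singled out after their values were seen, were Rpl30 at 10.1 ± 7.94 FPKM, Rpl7l1 at 13.9 ± 0.984 FPKM, Rps15a at 17.8 ± 1.71 FPKM and Rpl22 at 26.4 ± 2.06 FPKM. In all 12 libraries, 72 of the 79 stayed above 100 FPKM. Ribosomal protein genes have many processed pseudogenes, and how reads were shared among such copies is not given in the sources used here, so the very low values of Rpl30, Rps15a and Rpl26 are uncertain as levels.

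Taken as one sum, ribosomal protein messages held a larger share of all FPKM in every graft at day 60 than in any isolated islet library. The share was 15.7%, 12.3%, 10.9% and 7.90% in day 60 grafts, 8.13%, 8.06%, 8.18% and 6.27% in day 120 grafts, and 6.13%, 6.51%, 3.62% and 3.63% in isolated islets. The means were 11.7 ± 3.22%, 7.66 ± 0.926% and 4.97 ± 1.56% (SD, n = 4 each). Day 60 grafts did not overlap isolated islets, while the lowest day 120 graft lay inside their range. Day 60 and day 120 grafts overlapped, and the spread was widest at day 60.

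The denominator of this share differed between the groups. Pancreatic enzyme messages, from acinar cells that come along with isolated islets, summed to between 6004 and 68862 FPKM over 8 marker genes in isolated islets, but to between 7.79 and 20.5 FPKM in day 60 grafts and between 4.18 and 9.64 FPKM in day 120 grafts. The insulin gene Ins2 was listed at 0 in some libraries, which can be a failed estimate and also moves the total. With those 8 genes and 6 islet hormone genes left out of the total, the ribosomal protein share was 17.7%, 16.0%, 14.3% and 9.71% in day 60 grafts, 11.4%, 11.3%, 12.04% and 9.15% in day 120 grafts, and 8.83%, 9.78%, 8.60% and 9.24% in isolated islets. On this denominator the fourth day 60 graft and the fourth day 120 graft lay within the range of isolated islets, and the means were 14.4 ± 3.44%, 10.96 ± 1.25% and 9.11 ± 0.521%. The acinar markers were a small part of what was left out in isolated islet replicates 3 and 4. They summed to 13927 and 68862 FPKM there, in totals of 684417 and 786366 FPKM, and the rest left out was hormone FPKM.

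**Figure D1:**
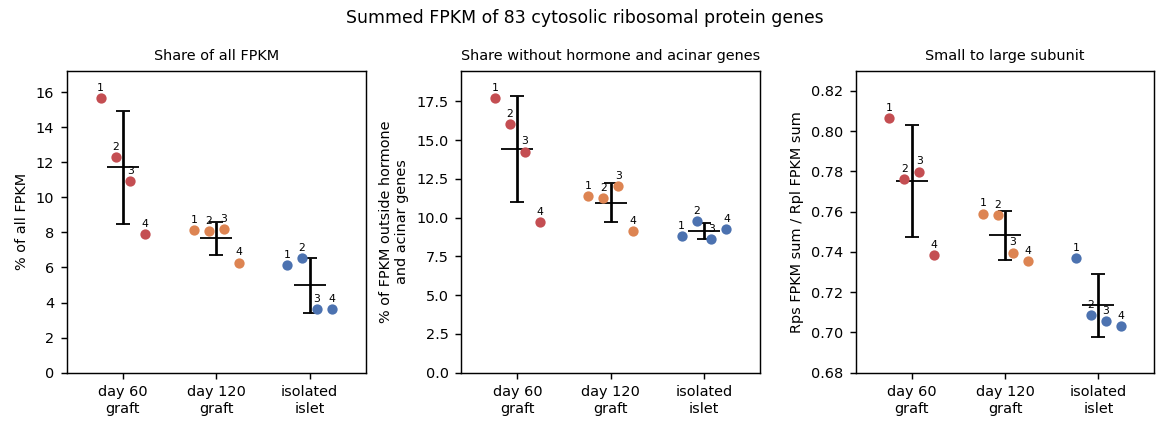
Summed FPKM of the 83 ribosomal protein genes as a share of all FPKM (left), as a share without 6 hormone and 8 acinar genes (middle), and the ratio of the Rps sum to the Rpl sum (right, axis not starting at 0). Points are libraries with their replicate number, bars are mean and SD of 4; day 60 grafts reach 15.7% of all FPKM, and replicate 4 is the lowest of both graft groups in every panel.

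At day 60, 62 of the 79 tested members rose against isolated islets and none fell (limma on log2(FPKM + 1), Benjamini-Hochberg adjusted p under 0.05 over 13433 genes). Over all tested genes, 31.3% were called higher and 12.3% lower in the same comparison. All 79 members had a positive change, with a median log2 change of 0.90 and a range from 0.06 to 1.62, against a median of 0.27 over all tested genes. In plain folds of the group means, the median was 2.02 and the range 1.06 to 3.74. The 4 day 60 grafts lay above the 4 isolated islets without overlap in 32 members, or fewer than the 62 called; over all genes this held for 22%. The small subunit had 28 of 32 members called (median log2 change 0.96), the large subunit 32 of 44 (0.82) and the stalk 2 of 3 (0.73).

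The members moved together from library to library, so the count is not one of independent genes. Relative to the isolated islet mean, the median member stood at 3.20-fold, 1.85-fold, 1.78-fold and 1.14-fold in the 4 day 60 grafts, at 1.31-fold, 1.34-fold, 1.33-fold and 1.09-fold in the 4 day 120 grafts, and at 0.938-fold, 1.15-fold, 0.887-fold and 1.02-fold in the 4 isolated islet libraries. Day 60 replicate 1 held the highest value of all 12 libraries in 79 of 79 members. Day 60 replicate 4 was the lowest of its group in 72 members, and day 120 replicate 4 the lowest of its group in 59. Isolated islet replicate 2 was the highest isolated islet in 73.

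Markers of other cell types differed between the same libraries. The labelled tissue was present in all groups, as 10 islet endocrine markers summed to 41179 to 86569 FPKM in day 60 grafts, 62048 to 75038 FPKM in day 120 grafts and 54453 to 63606 FPKM in isolated islets. Day 60 replicate 1 also had the highest sums of 6 fibroblast markers (4894 FPKM, against 675 to 895 FPKM in the other day 60 grafts), of 6 adipocyte markers (9351 FPKM, against 246 to 2901 FPKM), of 6 macrophage markers (3924 FPKM, against 412 to 1024 FPKM) and of 4 red blood cell markers (28585 FPKM, against 1830 to 2734 FPKM). Its islet endocrine sum was the lowest of all libraries, at 41179 FPKM, against 69184 to 86569 FPKM in the other day 60 grafts. In isolated islets the fibroblast sum was 17.0 to 23.0 FPKM, the adipocyte sum 28.8 to 39.3 FPKM, the macrophage sum 47.2 to 70.3 FPKM and the red blood cell sum 16.5 to 45.4 FPKM. Day 120 grafts had 262 to 749 FPKM of fibroblast, 218 to 901 FPKM of adipocyte, 287 to 484 FPKM of macrophage and 1915 to 21683 FPKM of red blood cell markers. The part of these cells in the ribosomal protein values was not tested, and in bulk RNA more cells of a type and more RNA per cell cannot be told apart. Without day 60 replicate 1, 56 members were called higher (34.8% of all genes), and the median log2 change was 0.61. Without day 60 replicate 4, 70 were called (29.5%) and the median was 1.14. Without isolated islet replicate 3, the lowest isolated islet in 49 members, 29 were called (23.2%).

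**Figure D2:**
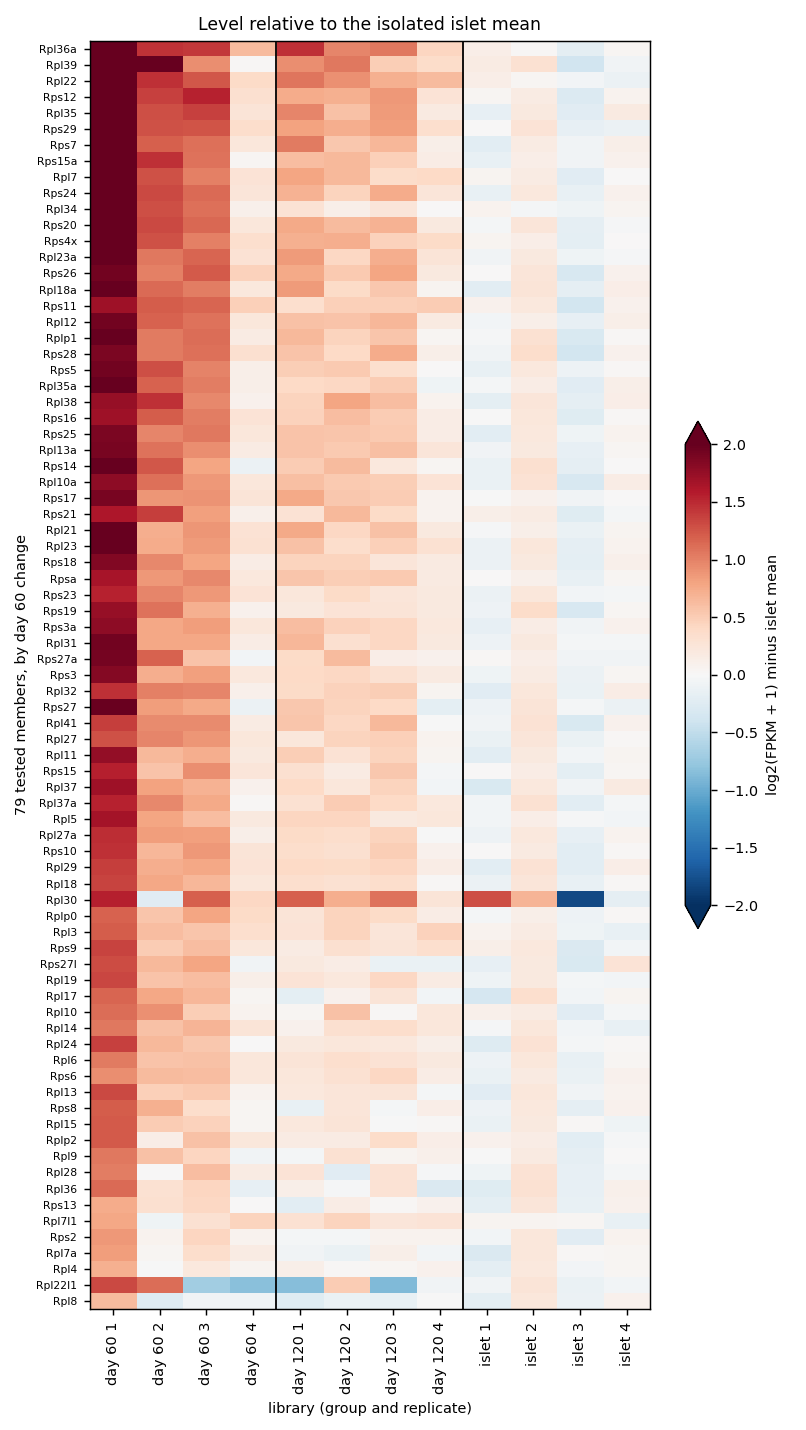
Each of the 79 tested members (rows, by day 60 change) in each of the 12 libraries, as log2(FPKM + 1) minus the isolated islet mean; the colour scale ends at 2 and higher values share its last colour. Day 60 replicate 1 is highest in all 79 rows, replicate 4 of both graft days is pale, and Rpl30 and Rpl22l1 break the pattern.

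Among the members whose day 60 grafts and isolated islets did not overlap, the 6 largest rises came from both subunits. Rpl36a, a large subunit protein near the site where spent transfer RNA leaves, was at 1293, 437, 428 and 249 FPKM in day 60 grafts and at 176, 163, 140 and 166 FPKM in isolated islets. Its log2 change was 1.62 ± 0.39 (SE, limma adjusted p = 0.0067). All 4 grafts lay above all 4 isolated islets, with replicate 1 far ahead.

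Rps12, a small subunit protein known in Drosophila for its part in sensing cells short of ribosomal proteins, was at 2307, 1302, 1472 and 632 FPKM in day 60 grafts and at 520, 566, 419 and 533 FPKM in isolated islets (log2 change 1.35 ± 0.32, limma adjusted p = 0.0060). Rps29, a zinc-binding small subunit protein, was at 2727, 1414, 1395 and 750 FPKM in day 60 grafts and at 586, 708, 523 and 539 FPKM in isolated islets (1.28 ± 0.32, limma adjusted p = 0.0074). In both genes the lowest graft, replicate 4, was only just above the highest isolated islet. Rpl35, which sits at the mouth of the exit tunnel for the new protein, was at 2425, 1120, 1188 and 552 FPKM in day 60 grafts and at 411, 527, 394 and 523 FPKM in isolated islets (1.33 ± 0.36, limma adjusted p = 0.0113). Rps7, a small subunit protein that can bind Mdm2, was at 1348, 577, 543 and 296 FPKM in day 60 grafts and at 217, 283, 240 and 273 FPKM in isolated islets (1.24 ± 0.36, limma adjusted p = 0.0164). In Rpl35 and Rps7 as well, replicate 4 was only just above the highest isolated islet, at 552 against 527 FPKM and 296 against 283 FPKM. The sixth, Rpl22, is described with its paralog. All 6 stayed past the threshold under every alternative run.

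The stalk proteins form the arm of the large subunit that recruits the elongation factors. Rplp0, its base, was at 897, 581, 686 and 513 FPKM in day 60 grafts and at 382, 430, 367 and 402 FPKM in isolated islets (log2 change 0.73 ± 0.19, limma adjusted p = 0.0102). Rplp1 rose by 1.09 ± 0.33 on the log2 scale (limma adjusted p = 0.0188), with the lowest graft at 1023 FPKM and the highest isolated islet at 1128 FPKM. Rplp2 did not pass the threshold, with a log2 change of 0.54 ± 0.23 (limma adjusted p = 0.0719). In this protein family the values of day 60 replicate 4 overlapped isolated islets for Rplp1 but not for Rplp0.

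Members with roles outside the ribosome or in its control also rose. Rps6, the substrate of the ribosomal S6 kinases downstream of mTOR, was at 584, 477, 470 and 358 FPKM in day 60 grafts and at 281, 348, 278 and 324 FPKM in isolated islets (log2 change 0.60 ± 0.18, limma adjusted p = 0.0189). The pair that binds the 5S ribosomal RNA and can restrain Mdm2 rose at similar sizes, Rpl5 by 0.82 ± 0.25 and Rpl11 by 0.83 ± 0.28 on the log2 scale (limma adjusted p = 0.0209 and 0.0306). Rpsa, also known as the laminin receptor precursor, rose by 0.92 ± 0.25 (limma adjusted p = 0.0117), and the X-linked Rps4x by 1.17 ± 0.29 (limma adjusted p = 0.0078). Rps27a, which is made as a fusion to ubiquitin, rose by 0.90 ± 0.33 (limma adjusted p = 0.0414), Rpl13a by 1.02 ± 0.29 (limma adjusted p = 0.0137) and Rpl41 by 0.86 ± 0.27 (limma adjusted p = 0.0224). For Rps27a, Rpl13a and Rpl41, day 60 replicate 4 lay inside the range of isolated islets, at 250, 308 and 1479 FPKM.

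Not every member took part equally. Rpl8, which lies beside the peptidyl transferase centre of the large subunit, was at 543, 294, 335 and 329 FPKM in day 60 grafts and at 306, 411, 321 and 370 FPKM in isolated islets. Apart from day 60 replicate 1, the grafts lay below the middle of the isolated islets, and the log2 change was 0.06 ± 0.21 (limma adjusted p = 0.841). Rpl4, whose loop lines the exit tunnel, was at 781, 474, 549 and 492 FPKM in day 60 grafts and at 417, 548, 457 and 490 FPKM in isolated islets (0.24 ± 0.19, limma adjusted p = 0.320).

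To compare members with each other, each library was also centred on the median log2 level of its tested members. The median member is thus a level, not a change. At day 60 the relative changes on that scale had a median of 0.14 and were positive in 52 of the 79 members. That favours calls above over calls below. On that scale 4 members stood above the median member at day 60 and 2 below it, where 6.04% of all genes were called higher and 27.6% lower. Those above were Rpl36a (relative log2 change 0.86 ± 0.25, limma adjusted p = 0.0136), Rps12 (0.59 ± 0.18, limma adjusted p = 0.0194), Rpl35 (0.57 ± 0.20, limma adjusted p = 0.0362) and Rps29 (0.51 ± 0.17, limma adjusted p = 0.0275). Those below were Rpl8 (-0.70 ± 0.21, limma adjusted p = 0.0157) and Rpl4 (-0.52 ± 0.19, limma adjusted p = 0.0448). Rpl35 and Rpl4, whose groups overlapped on this scale, were named after their values were seen. These counts depended on single libraries. Without day 60 replicate 4 there were 22 above and 6 below. There was 1 above without day 60 replicate 3, isolated islet replicate 2 or isolated islet replicate 3, and there were 2 without day 60 replicate 1 or isolated islet replicate 4. There were none below without isolated islet replicate 3. Each other single day 60 or isolated islet library left out, except day 60 replicate 4, gave 1 below. The shares of all genes called in these runs are not given here, and 6.04% and 27.6% belong to the fit of all 12 libraries. Rpl36a stayed past the threshold on this scale under every alternative run.

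The ratio of small subunit to large subunit FPKM sums also differed. It was 0.806, 0.776, 0.780 and 0.738 in day 60 grafts, 0.759, 0.758, 0.740 and 0.736 in day 120 grafts, and 0.737, 0.709, 0.705 and 0.703 in isolated islets. Day 60 grafts lay above isolated islets without overlap, but by only a thin margin between the lowest graft, replicate 4, and isolated islet replicate 1. Among the day 120 grafts, replicate 4 lay just under isolated islet replicate 1.

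**Figure D3:**
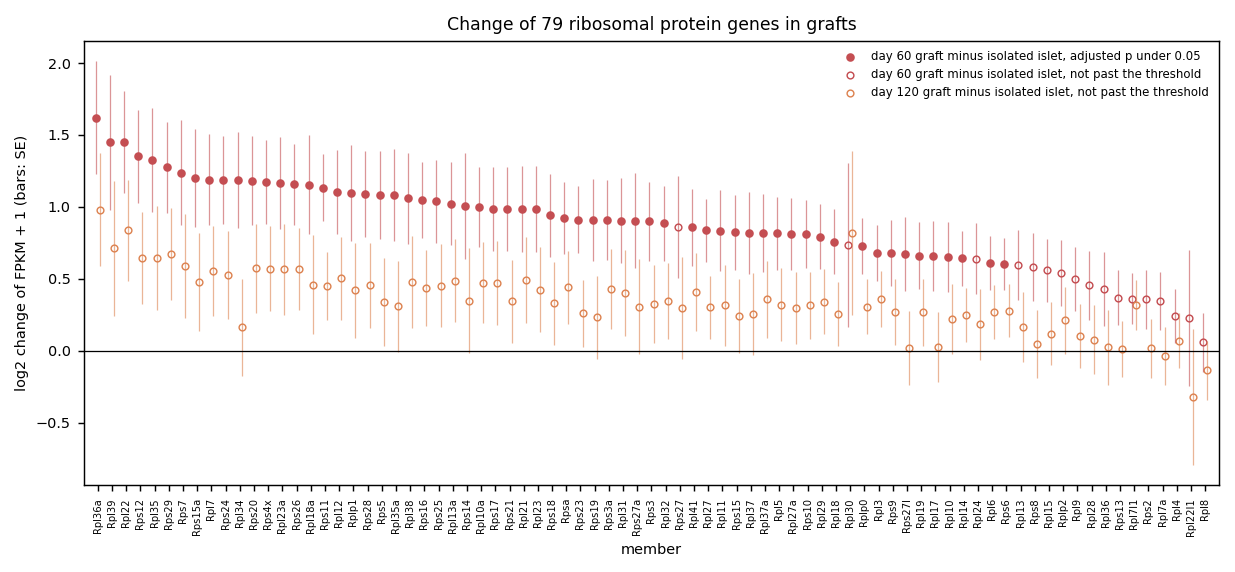
Log2 change of each of the 79 tested members (horizontal axis, by day 60 change) in day 60 and day 120 grafts against isolated islets, with SE bars from limma. Filled points passed an adjusted p of 0.05: 62 at day 60 and none at day 120, and the day 60 change is the larger in all members but Rpl30.

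At day 120 none of the 79 members passed the threshold against isolated islets in either direction (limma; 2 had an unadjusted p under 0.05), while 24.3% of all tested genes were called higher and 7.03% lower. The changes were positive in 76 members and negative in Rpl22l1, Rpl8 and Rpl7a. Their median was 0.33 and their range -0.32 to 0.98, against a median of 0.30 over all tested genes. Day 120 grafts lay above isolated islets without overlap in 23 members; over all genes this held for 28.3%.

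Of the tested members, Rpl36a and Rpl22 had the largest day 120 changes, and Rpl30 came next at 0.82 ± 0.57 (limma adjusted p = 0.280). Rpl36a was at 443, 316, 335 and 218 FPKM in day 120 grafts, above the 176, 163, 140 and 166 FPKM of isolated islets, with a log2 change of 0.98 ± 0.39 (limma adjusted p = 0.073). Rps29 was at 1023, 963, 1043 and 735 FPKM in day 120 grafts, against 586, 708, 523 and 539 FPKM in isolated islets (0.67 ± 0.32, limma adjusted p = 0.118). Rpl8 was at 295, 318, 314 and 349 FPKM in day 120 grafts, against 306, 411, 321 and 370 FPKM in isolated islets, with a log2 change of -0.14 ± 0.21 (limma adjusted p = 0.629).

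The count at day 120 changed with the fit. All 3 groups shared 1 estimate of the spread, and the SD of the median member was 0.54 in day 60 grafts, 0.11 in day 120 grafts and 0.18 in isolated islets on the log2 scale. With only the 8 libraries of this comparison, 32 members were called higher, beside 35.7% of all genes, and with libraries weighted by their quality 28 were, beside 48.4%. After quantile normalization 26 were called, beside 11.4%. With the replicate number as a block, 2 were called, beside 24.4%.

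Between the graft days, no member was called at day 120 against day 60 (limma; 16 had an unadjusted p under 0.05), and 0.00744% of all genes were called in each direction, or 1 gene each. The changes were negative in 78 of the 79 members, with a median of -0.54 against 0.03 over all genes. No member separated the graft days without overlap, where 2.91% of all genes did so upwards and 1.38% downwards. Day 120 and day 60 grafts of the same number varied together over all genes. The labels state no such pairing, so the pairs rest on that likeness alone. Within those pairs the ribosomal protein share was lower at day 120 in 4 of 4. It was 8.13% against 15.7%, 8.06% against 12.3%, 8.18% against 10.9% and 6.27% against 7.90%. Across pairs, day 60 replicate 4 at 7.90% lay below day 120 replicates 1, 2 and 3. The median member was lower in 4 of 4 pairs as well, at 412, 405, 409 and 350 FPKM in day 120 grafts and 897, 541, 536 and 360 FPKM in day 60 grafts. With the replicate number as a block, still no member was called. Rpl30 was the exception in sign, at 18.6, 13.1, 17.1 and 9.15 FPKM in day 120 grafts and 24.2, 6.30, 18.5 and 10.3 FPKM in day 60 grafts. Without day 60 replicate 1 the median change was -0.27, and without day 60 replicate 4 it was -0.79. The isolated islets serve in both graft comparisons, so the likeness of their orders is no separate result. Relative to the median member, no member was called at day 120 against isolated islets (limma), where 3.09% of all genes were called higher and 3.99% lower. Against day 60 none was called either, where 0.00744% of all genes were called higher and 0% lower. At the looser limit of an unadjusted limma p under 0.05, there were 3 members against isolated islets and 1 against day 60. No share of all genes is given at that limit.

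Several members have a close relative elsewhere in the genome that can take their place in the ribosome. Rpl22 and Rpl22l1 are such a pair, and loss of Rpl22 in mice is known to raise Rpl22l1. Rpl22 was at 177, 74.2, 64.0 and 34.8 FPKM in day 60 grafts, at 56.6, 50.8, 43.8 and 41.7 FPKM in day 120 grafts, and at 28.9, 27.3, 25.4 and 24.2 FPKM in isolated islets. Every graft of either day lay above every isolated islet. The log2 change was 1.45 ± 0.35 at day 60 (limma adjusted p = 0.0069) and 0.84 ± 0.35 at day 120 (limma adjusted p = 0.0867).

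Rpl22l1 did not follow. It was at 115, 100, 28.0 and 25.2 FPKM in day 60 grafts, at 25.0, 65.8, 24.3 and 43.6 FPKM in day 120 grafts, and at 43.7, 54.8, 41.4 and 44.1 FPKM in isolated islets. In grafts it lay either above or below the whole range of isolated islets, except for day 120 replicate 4, and neither change passed the threshold (0.23 ± 0.47, limma adjusted p = 0.722, and -0.32 ± 0.47, limma adjusted p = 0.619).

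The Rpl22l1 to Rpl22 ratio averaged 0.791 ± 0.391 in day 60 grafts, 0.834 ± 0.404 in day 120 grafts and 1.74 ± 0.217 in isolated islets (SD, n = 4 each). It ran from 0.437 to 1.35 and from 0.442 to 1.29 in the grafts and from 1.51 to 2.01 in isolated islets, so neither graft group overlapped the isolated islets. The log2 ratio was lower by -1.25 at day 60 and by -1.19 at day 120 (exact two-sided permutation p = 0.0286 for each, the smallest that 70 assignments allow). Adjusted over the 9 paralog tests made, p was 0.129 for each exact test, so the difference did not pass the correction, although it was seen in 4 of 4 grafts at both times. As no exact p here can fall under 0.0286, full separation in these comparisons alone could not have passed, whatever its size.

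**Figure D4:**
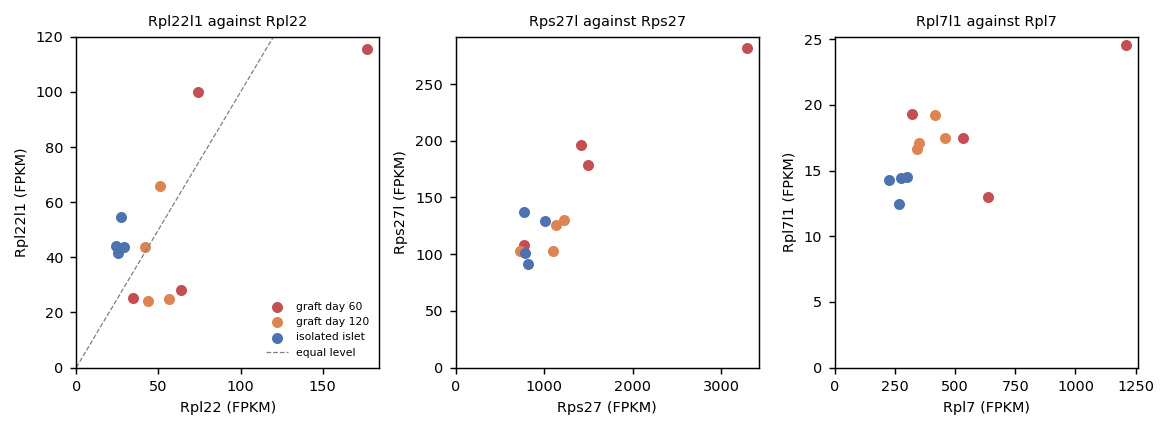
FPKM of 3 paralogs (vertical axes) against their partners (horizontal axes), 1 point per library, with the line of equal level for Rpl22l1 and Rpl22. The 4 isolated islets lie together above that line, with Rpl22l1 at 1.51 to 2.01 times Rpl22, and the grafts lie nearer the line or under it, at 0.437 to 1.35 times at day 60 and 0.442 to 1.29 times at day 120.

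The ratios of Rps27l to Rps27 and of Rpl7l1 to Rpl7 gave no such separation. Rps27l, a p53-responsive copy of Rps27, was at 0.121 ± 0.0253 of Rps27 in day 60 grafts, 0.113 ± 0.0203 in day 120 grafts and 0.137 ± 0.0275 in isolated islets, and all 3 ranges overlapped. Rps27l itself was called higher at day 60 only narrowly (0.67 ± 0.26, limma adjusted p = 0.0498), while Rps27 was not called (0.86 ± 0.35, limma adjusted p = 0.0647). Rpl7 rose by 1.19 ± 0.32 (limma adjusted p = 0.0102), and Rpl7l1 had a log2 change of 0.36 ± 0.18 (limma adjusted p = 0.110). Their ratio was 0.0334 ± 0.0187 in day 60 grafts, 0.0456 ± 0.0049 in day 120 grafts and 0.0530 ± 0.0076 in isolated islets, again with overlap.

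Rpl3 and Rpl39, whose copies serve mainly muscle and testis, were called higher at day 60. Rpl3, at the peptidyl transferase centre, rose by 0.68 ± 0.20 (limma adjusted p = 0.0147). Rpl39, which lines the exit tunnel, was at 1402, 788, 373 and 198 FPKM in day 60 grafts and at 219, 241, 150 and 186 FPKM in isolated islets (1.45 ± 0.47, limma adjusted p = 0.0252), with replicate 4 inside the range of isolated islets. The muscle copy Rpl3l stayed at or under 0.180 FPKM in every library. Rpl39l was at 2.53, 0.750, 0.963 and 0.389 FPKM in day 60 grafts, at 0.000, 0.270, 0.000 and 0.152 FPKM in day 120 grafts, and was listed at 0 in all 4 isolated islets, so that every day 60 graft lay above every other library, at levels too low for the test. Rpl10 rose by 0.65 ± 0.24 (limma adjusted p = 0.0448), and its testis copy Rpl10l was listed at 0 in all 12 libraries. Rpl26 was listed at 9.66 FPKM in 1 day 60 graft, at 7.09 and 21.4 FPKM in 2 day 120 grafts, and near 0 elsewhere, which for a core ribosomal protein can be a failed estimate.

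Members with shorter coding sequences tended to have larger changes. Across the 79 tested members, Spearman's rank correlation between coding length and log2 change was -0.391 at day 60 and -0.264 at day 120, and over the 12674 tested genes with a length it was -0.260 and -0.170. With the whole transcript length, which is closer to the length that FPKM divides by, it was -0.155 at day 60 and -0.031 at day 120 over the members, and -0.299 and -0.210 over all genes. These correlations describe genes, which share libraries and are not independent replicates. The 27 shortest members, of 75 to 399 coding bases, had a median day 60 change of 1.08, the 26 in the middle 0.89, and the 26 longest, of 582 to 1257 bases, 0.67. At day 120 the medians were 0.45, 0.32 and 0.29. Short genes of the whole table also had larger changes, with a day 60 median of 0.53 among the 3171 shortest genes, of up to 819 bases, and -0.02 among the 3168 longest.

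**Figure D5:**
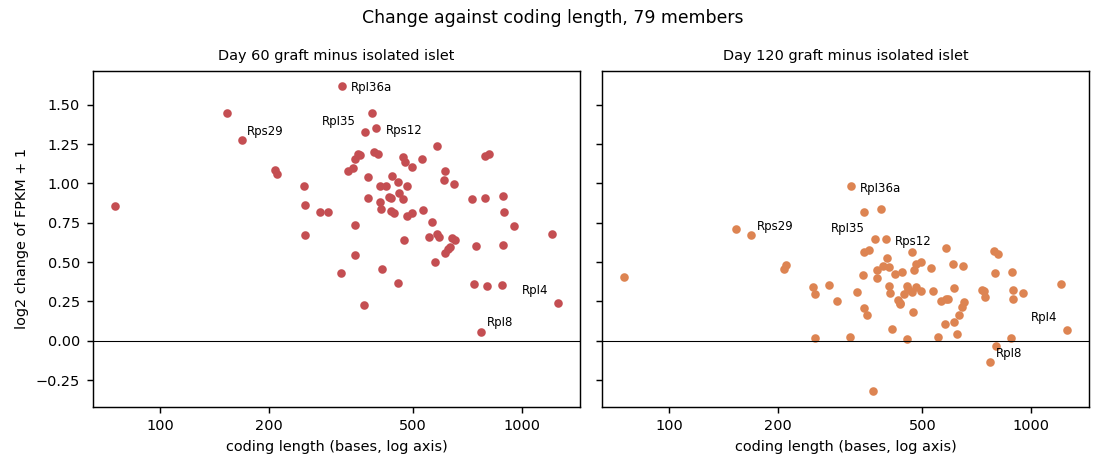
Log2 change of the 79 tested members against coding length (log axis) in day 60 grafts (left) and day 120 grafts (right), each against isolated islets; named points passed the test relative to the median member at day 60. The rank correlation is -0.391 on the left and -0.264 on the right, with Rpl36a highest in both panels and the long genes Rpl8 and Rpl4 near 0.

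The start-site tract did not divide the members by their change. The 31 tested members with a tract had a median log2 change of 0.81 at day 60 and 0.28 at day 120, and the 28 without one had 0.88 and 0.34. Rpl35, with a long tract, and Rpl36a, Rps12 and Rpl22, with none touching the annotated start, were all among the 6 largest rises.

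Some ribosomal proteins are listed under symbols outside the rule. At day 60, Rpl36al, a close relative of Rpl36a, rose (log2 change 0.68 ± 0.21, limma adjusted p = 0.0183), as did Fau, a fusion with a small subunit protein (0.73 ± 0.28, limma adjusted p = 0.0467). Gnb2l1, which encodes the scaffold Rack1, had 0.60 ± 0.24 (limma adjusted p = 0.0596). At day 120 the log2 changes were 0.52 ± 0.21 for Rpl36al (limma adjusted p = 0.0692), 0.08 ± 0.28 for Fau (limma adjusted p = 0.849) and 0.15 ± 0.24 for Gnb2l1 (limma adjusted p = 0.651), none past the threshold.

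The mitochondrial ribosome is a separate particle with its own proteins. Of its 76 tested proteins, 40 rose at day 60 and 22 at day 120 and none fell in either, with median log2 changes of 0.58 and 0.39, where 31.3% of all tested genes were called higher at day 60 and 24.3% at day 120. The day 120 count is near that share. Day 60 replicate 1 was again the highest, with a median mitochondrial ribosomal protein at 2.04-fold the isolated islet mean against 1.25-fold, 1.54-fold and 1.32-fold in the other day 60 grafts.

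Among the factors that use and build the ribosome, calls went both ways. The shares to read them against are those of all tested genes, 31.3% higher and 12.3% lower at day 60 and 24.3% higher and 7.03% lower at day 120. Of 12 elongation and termination factors, 3 rose and 4 fell at day 60 and 1 rose and 2 fell at day 120. Etf1, which releases the finished protein, averaged 23.6 ± 3.68 FPKM in day 60 grafts, 24.9 ± 2.82 FPKM in day 120 grafts and 45.2 ± 8.15 FPKM in isolated islets (log2 change -0.90 ± 0.18, limma adjusted p = 0.0024 at day 60). Of 37 initiation factors, 3 rose and 9 fell at day 60 and 2 rose and 6 fell at day 120, including Eif6, which keeps the subunits apart until the large one is mature (-1.40 ± 0.29, limma adjusted p = 0.0031 at day 60), and Eif1, which guards start codon choice (-0.76 ± 0.18, limma adjusted p = 0.0058 at day 60). The median changes of both lists lay below that of all genes, at -0.02 and -0.10 at day 60. Eif6 was at 13.1 to 21.8 FPKM in day 60 grafts and 14.3 to 18.4 FPKM in day 120 grafts, against 22.8 FPKM in isolated islet replicate 1 and 56.4 to 65.8 FPKM in the other isolated islets.

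Of 56 tested ribosome biogenesis factors, 9 rose and 11 fell at day 60 and 7 rose and 5 fell at day 120, against the same shares of all genes (31.3% and 12.3%, then 24.3% and 7.03%). Eif6, which fell at both days, is counted in this list as well as among the initiation factors. Nop10, of the snoRNPs that modify ribosomal RNA, rose by 1.80 ± 0.32 at day 60 (limma adjusted p = 0.0014) and Nop56 by 0.71 ± 0.18 (limma adjusted p = 0.0077), while Rrp12, which helps export the subunits, fell by 1.25 ± 0.26 on the log2 scale (limma adjusted p = 0.0034). Of 14 RNA polymerase I genes, 2 rose at day 60 and 4 at day 120, with Taf1c past the threshold in both; the day 120 count is near the 24.3% of all genes. Of 18 tested genes of mTOR and S6 kinase signalling, 2 rose and 5 fell at day 60 and 2 rose and 4 fell at day 120, beside 12.3% and 7.03% of all genes lower. Myc, a driver of ribosome production, fell by 1.21 ± 0.29 at day 60 and by 1.58 ± 0.29 at day 120 on the log2 scale (limma adjusted p = 0.0068 and 0.0039). The mTOR partner Mlst8 rose by 1.16 ± 0.25 and 1.24 ± 0.25 (limma adjusted p = 0.0037 and 0.0058). As for Eif6, isolated islet replicate 1 stood nearer the grafts than the other isolated islets did, with Nop10 at 33.0 FPKM against 14.4 to 16.6 FPKM, Rrp12 at 3.41 FPKM against 7.66 to 9.80 FPKM and Mlst8 at 3.11 FPKM against 0.73 to 1.34 FPKM; the part of that library in these calls was not tested.

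Of 12 other genes known to carry a TOP tract, 3 rose at day 60 and 2 at day 120, and none fell, which is no more than the 31.3% and 24.3% of all genes called higher. The small nucleolar RNA host genes Gas5 (log2 change 1.09 ± 0.18, limma adjusted p = 0.0010) and Snhg8 (1.02 ± 0.18, limma adjusted p = 0.0013) rose at day 60, as did the nucleolar protein Npm1 (0.82 ± 0.24, limma adjusted p = 0.0146). The median over the 12 was 0.29 at day 60 and 0.05 at day 120, against 0.27 and 0.30 over all genes. Between day 120 and day 60 no gene of these lists was called.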

How the data were processed

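RNA from 12 mouse libraries in 3 groups of 4 was measured. The deposited values are FPKM per gene symbol, made by the authors with TopHat2 and Cufflinks 2.1.1 on build mm9, per the submitters' processing notes; the annotation, settings and scaling across libraries are not given in the sources used here. cDNA was made from low input RNA with a SMARTer kit and amplified, per the labels' protocols. FPKM summed to between 396769 and 786366 per library, the depth is unknown, and no counting interval can be given.

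The values were taken as log2(FPKM + 1), which understates changes of low genes. All 3 groups were fitted in limma 3.58.1 (R 4.3.3, statmod 1.5.0) with a mean-variance trend and robust variances, two-sided, over the 13433 genes with at least 1 FPKM in at least 4 of 12 libraries, with Benjamini-Hochberg adjustment and a threshold of 0.05. A second fit centred each library on the median of its tested members. The fit was tested on simulated data. Paralog ratios were compared by exact permutation. Members, lists and tests were chosen with earlier results of these data known. Members named are the 6 largest rises and falls past the threshold without overlap in each comparison and scale, paralog pairs, stalk genes and 8 members of known role, and of other lists up to 4 genes with the smallest p.

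Over all genes, same-numbered day 120 and day 60 grafts were compared by their deviations from the group means. These correlated at 0.18 to 0.442, over 0.1 in 4 of 4 pairs. The numbers were therefore taken as pairing the grafts, although the labels state no pairing. With isolated islets the same correlations ran from -0.0784 to 0.0199. Coding lengths came from principal transcripts of GENCODE M21 and start sites from RefSeq on GRCm38.p6.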

Additional observations from a re-analysis of the deposited data

Results flagged for a closer look

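In 5 of 93 groups of 4 values checked, 1 library stood apart from the other 3, by the gap to the nearest of them as a share of the whole range (Dixon's 95% value); chance flags about 1 in 20 groups. The ribosomal protein share of all FPKM was 6.27% in day 120 replicate 4, against 8.06% to 8.18% in the other day 120 grafts, and its ribosomal protein FPKM sum was 30170, against 37190 to 38090. Rplp2 was at 490.5 FPKM in day 120 replicate 3, against 415.6 to 426.6 FPKM in the other 3. Rpl7l1 was at 12.47 FPKM in isolated islet replicate 4, against 14.32 to 14.51 FPKM in the other isolated islets. The ratio of small to large subunit sums was 0.7368 in isolated islet replicate 1, against 0.7033 to 0.7086 in the others.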

How the results depend on the processing

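No member was called lower against isolated islets at either day under any alternative run. The 62 members called higher at day 60 became 32 with only the 8 libraries compared (23.2% of all genes), and 29 to 70 with 1 library left out; other alternatives gave 46 to 70. Their median log2 change was 0.55 after quantile normalization and 0.61 to 1.14 with 1 library left out. At day 120 the count of 0 became 1 with scaling to the FPKM sum outside hormone and acinar genes and 26 with quantile normalization. It became 32 with only the 8 libraries, 28 with array weights and 2 with the replicate block. Without isolated islet replicate 1 and day 60 replicate 1 together it became 7. It stayed at 0 with any 1 isolated islet or day 120 library left out. In every comparison, single libraries were left out only from the groups compared. No day 60 library was therefore left out alone here, although these libraries enter the shared estimate of the spread. A count with no share of all genes here or above does not set the members apart from other genes. With the block, 61 members were called at day 60 and 0 between the graft days, and 0 again with the graft libraries alone, an alternative chosen after seeing the data. Between graft days, array weights called 3 lower, and the median was -0.19 after quantile normalization and -0.79 to -0.27 with 1 library left out.

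Relative to the median member, the 4 above and 2 below at day 60 became 25 and 8 with array weights, 1 and 1 with only the 8 libraries or without trend and robust variances, and 2 and 1 without both first replicates; no filter left 1 above, quantile normalization gave 13 above, and a pseudocount of 5 left 1 below. Leaving out 1 library gave 1 to 22 above and 0 to 6 below. At day 120 the counts of 0 became 16 and 8 with array weights, 6 and 1 with only the 8 libraries, 2 above with quantile normalization, 2 above without both first replicates and 1 above with the replicate block. Between graft days array weights gave 3 above and 2 below, and leaving out 1 library up to 3 and 1. The shares of all genes called in these runs are not given here, so the counts alone do not set the members apart from other genes.

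With that sum as the denominator, the ribosomal protein share was 10.96% at day 120 and 9.113% in isolated islets; leaving out 1 library gave 10.4% to 13.0% at day 60, 7.49% to 8.12% at day 120 and 4.46% to 5.42% in isolated islets.

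Changes near 0 turned sign. Rpl22l1 at day 60 became -0.053 with scaling to that sum, -0.00664 with quantile normalization, -0.55 with array weights, -0.16 without both first replicates, and -0.14 and -0.068 without day 60 replicates 1 and 2, with 0.58 the highest with 1 library left out. Rps27l at day 120 became -0.14 with upper-quartile scaling, -0.079 with that sum, -0.063 with quantile normalization, -0.068 with array weights, -0.036 without both first replicates, and -0.083 to 0.11 with 1 library left out. Between graft days, Rpl7l1 became 0.13 with that sum, 0.029 with array weights, 0.096 without both first replicates and -0.19 to 0.096 with 1 library left out; Rpl22l1 became 0.26 with array weights; Rpl3, Rplp2 and Rps6 became 0.0017, 0.043 and 0.037 with quantile normalization. The cause was not tested for any of these.

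Scaling moved all genes too: the median log2 change over all genes at day 60 was 0.27 as reported, 0.13 with upper-quartile scaling, 0.04 with that sum and -0.04 with quantile normalization, and the share called higher and lower was 31.3% and 12.3% as reported, 25.8% and 16.8%, 19.8% and 16.4%, and 17.8% and 21.7%. Unknown depth and 4 libraries a group limit what small changes can be seen.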
